A study of Homo sapiens with 18 samples.

Results

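KMT2C was silenced with one small interfering RNA, KMT2C siRNA1, in 3 established lines of human pancreatic ductal adenocarcinoma, and the RNA of these cells was set against that of the same lines given Control siRNA. The comparison was chosen by library title and rests on 6 of the 18 libraries of the series, 1 per line and treatment. The lines were PANC1, COLO357 and SUIT2, and every library came from cells transfected for 48 h. The other 12 libraries, which serve as further references, came from the same lines after KMT2C siRNA2, KMT2C siRNA3, KMT2D siRNA1 or KMT2D siRNA2. Nothing in the labels says that any line was transfected more than once with a given siRNA. The spread behind each test is therefore how far the differences between treatments varied from line to line, and part of it may be technical. Disagreement between siRNAs that were averaged into a reference does not enter that spread. Transient silencing lowers an mRNA without deleting its gene, and neither protein nor histone marks were measured.

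KMT2C and KMT2D encode large histone H3 lysine 4 methyltransferases that place the monomethyl mark of enhancers, each within a complex that shares the subunits WDR5, RBBP5, ASH2L and DPY30. Both genes are recurrently mutated in pancreatic cancer. An siRNA guide strand cuts an mRNA that it pairs with along its length, and it is known to repress other mRNAs as a microRNA does, when their 3′ untranslated region (3′ UTR) pairs with the seed at bases 2 to 8 of the guide.

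Short sequences shared by the genes that changed are shown first because the results below return to them. They are sites in the mRNA sense strand (GRCh38 transcripts of the GENCODE annotation, with 8 bases on each side), with the heptamer AAACGGA or the hexamer GACGTA in capitals. Among all heptamers searched, AAACGGA marked the 3′ UTRs of genes lower with KMT2C siRNA1, and GACGTA was the core of heptamers in genes higher with KMT2C siRNA1 than with Control siRNA. Whether KMT2C, with a transcript of 16862 bases, holds more of these sequences than its length would give was not tested. KMT2C itself holds AAACGGA at 3 places. These are in the coding sequence of exon 38 (chr7:152176979-152176985, minus strand), in that of exon 44 (chr7:152158973-152158979) and in the 3′ UTR in exon 59 (chr7:152136613-152136619). KMT2C also holds GACGTA in the coding sequence of exon 43 (chr7:152162481-152162486). In that of exon 37 it holds GCTAGTA (chr7:152179859-152179865), a heptamer named below.
KMT2C exon 38: tgaggtaaAAACGGAagtactgt
KMT2C exon 44: agcgaagcAAACGGActcagagg
KMT2C exon 59: ccgaggttAAACGGAatcacaga
DERL2 (3′ UTR, chr17:5474312-5474318, minus strand): acaaaataAAACGGAattccatt
RMND5A (3′ UTR, chr2:86773712-86773718, plus strand): aagagcagAAACGGAaattgacc
CDC123 (3′ UTR, chr10:12250490-12250496, plus strand): ggggaaaaAAACGGAgggacttt
GET1 (3′ UTR, chr21:39396971-39396977, plus strand): aggctaaaAAACGGAtttcctct
BRI3BP (3′ UTR, chr12:125026166-125026172, plus strand): acattttgAAACGGAaaatgcaa
MET (3′ UTR, chr7:116797599-116797604, plus strand): gttttgtcGACGTAaacattta
WWTR1 (3′ UTR, chr3:149517556-149517561, minus strand): gttctcatGACGTAattagaaa
MSRB3 (3′ UTR, chr12:65466657-65466662, plus strand): atgcaaatGACGTAgcaatttg

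Among human mature microRNAs in RefSeq, 1 carries a seed that pairs with AAACGGA, hsa-miR-1468-5p, shown with its seed in capitals. The siRNA sequences were not analysed here, so whether AAACGGA pairs with the seed of KMT2C siRNA1 was not tested.
hsa-miR-1468-5p: cUCCGUUUgccuguuucgcug

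The KMT2C siRNA1 libraries held 24765238 gene counts in PANC1, 17473022 in COLO357 and 15266899 in SUIT2, and the Control siRNA libraries held 32115894, 21244832 and 21315077. Levels are counts-per-million (CPM) values. Keratin transcripts were present in all 6 libraries, whereas of 10 leukocyte markers 9 or 10 lay under 1 CPM in each of the 6, the exception above 10 CPM being LCP1 in COLO357. Levels below carry TMM scaling unless said otherwise, and log2 fold changes (log2FC) with their standard errors (SE) come from edgeR's quasi-likelihood fit to all 18 libraries with cell line as a term. Genes are said to be called where the p adjusted over all 18944 genes tested was under 0.05.

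KMT2C mRNA was lower with KMT2C siRNA1 than with Control siRNA in every line. It stood at 31.2 CPM in PANC1, 44.3 CPM in COLO357 and 62.1 CPM in SUIT2 with KMT2C siRNA1, against 49.9, 91.1 and 143 CPM with Control siRNA. In percent of the control library of the same line this left 62.5% in PANC1, 48.6% in COLO357 and 43.3% in SUIT2, with a mean of 51.5% ± 9.94 (SD, n = 3). The PANC1 library therefore kept the largest share of its KMT2C mRNA, and the 2 sets of 3 values overlap across lines because SUIT2 has the highest level under either siRNA. The fall had a log2FC of -0.99 (SE 0.21, edgeR adjusted p = 0.0199). Single libraries decided this call: the adjusted p was 0.0964 without the PANC1 and 0.132 without the SUIT2 library of KMT2C siRNA1, and 0.0847 without the COLO357 and 0.115 without the SUIT2 library of Control siRNA.

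The other siRNAs against the same mRNA left more of it. KMT2C siRNA2 left 115% in PANC1, 62.8% in COLO357 and 65.4% in SUIT2, and KMT2C siRNA3 left 71.8%, 82.7% and 64.5% in the same order of lines. KMT2C mRNA with KMT2C siRNA1 was below both in each line, although the difference from their mean was not called (log2FC -0.58, SE 0.19, edgeR adjusted p = 0.128). Against the KMT2D siRNAs, with which KMT2C mRNA stood at 92.2% to 278% of control, the difference was called (log2FC -1.39, SE 0.20, edgeR adjusted p = 0.000348).

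KMT2D mRNA, from the paralogous gene, did not pass the test against Control siRNA. It stood at 30.6 CPM in PANC1, 40.9 CPM in COLO357 and 66.8 CPM in SUIT2 with KMT2C siRNA1, against 26.8, 33.0 and 67.3 CPM with Control siRNA (log2FC 0.16, SE 0.28, edgeR adjusted p = 0.900). With KMT2C siRNA2 and KMT2C siRNA3, KMT2D stood at 129% to 369% of control, against 99.2% to 124% with KMT2C siRNA1. That difference was not called (log2FC -0.73, SE 0.25, edgeR adjusted p = 0.169). In the KMT2D siRNA libraries KMT2D stood at 34.4% to 86.0% of control, and KMT2C siRNA1 was higher by a log2FC of 0.99 (SE 0.24, edgeR adjusted p = 0.0171).

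**Figure D1:**
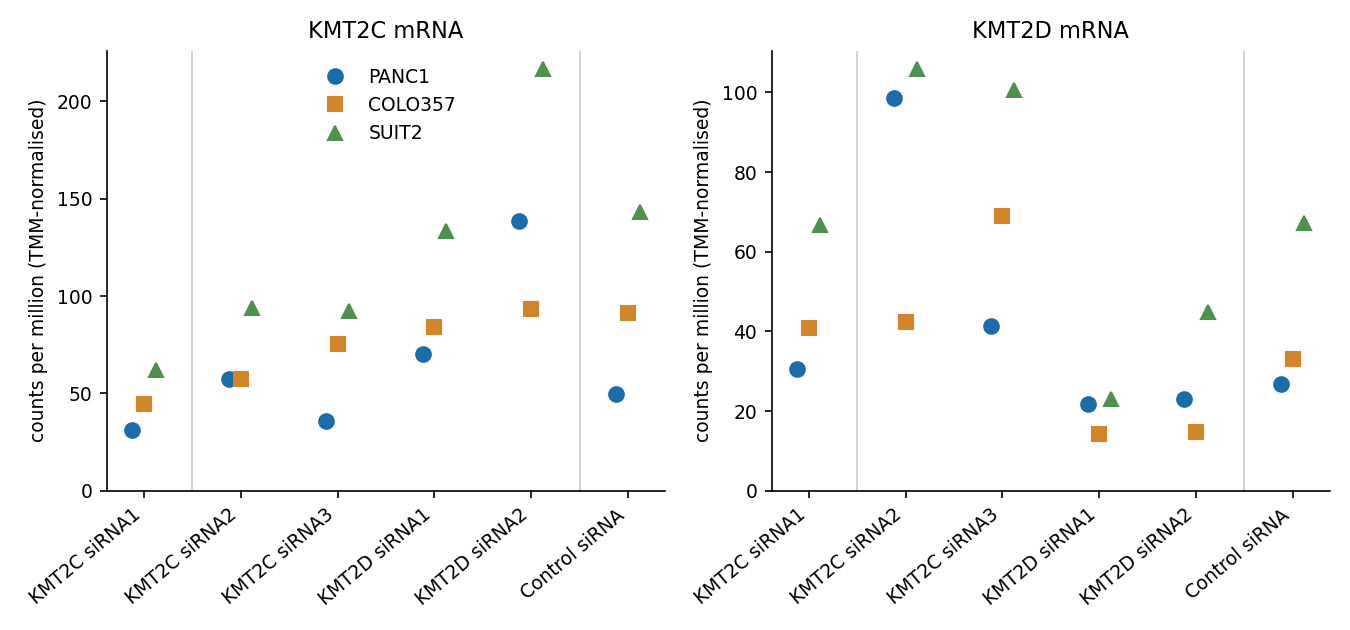
Levels of KMT2C (left) and KMT2D (right) mRNA in CPM, 1 point per library, for 5 siRNAs and Control siRNA; marker shape and colour give the cell line. KMT2C siRNA1 gave the lowest KMT2C level of the 6 treatments in each line, at 31.2 to 62.1 CPM.

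Against Control siRNA, 262 genes were called with KMT2C siRNA1, 1.38% of those tested. Of these, 151 rose (0.797%) and 111 fell (0.586%), and 247 moved in the same direction in all 3 lines. Protein-coding genes made up 149 of the rises and 103 of the falls. The median log2FC was 0.99 over the rises and -1.02 over the falls, against -0.01 over all genes tested. The rises had line medians of 0.92 in PANC1, 0.79 in COLO357 and 1.19 in SUIT2, and the falls -1.20, -0.60 and -1.12. COLO357 had the smallest median in both directions. Leaving out the SUIT2 library of KMT2C siRNA1 left 58 called genes and leaving out its PANC1 library left 91, while leaving out the COLO357 library gave 361. Leaving out the control library of PANC1 left 103 and that of SUIT2 left 106.

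The rises and the falls stood differently against the other siRNAs. Every comparison in this paragraph uses the same KMT2C siRNA1 libraries, so the counts are not independent of each other. Among the 111 falls, 63 (56.8%) were also called lower than with KMT2C siRNA2 and siRNA3, where 0.903% of all tested genes were, and 86 (77.5%) were called lower than with the KMT2D siRNAs, where 3.88% were. Among the 151 rises, 24 (15.9%) were also called higher than with KMT2C siRNA2 and siRNA3, where 1.22% of all tested genes were, and 40 (26.5%) higher than with the KMT2D siRNAs, where 4.56% were. Neither comparison called 106 of the rises (70.2%) as higher, and neither called 18 of the falls (16.2%) as lower. Against the KMT2D siRNAs 2 rises and 1 fall were called the opposite way, and against KMT2C siRNA2 and siRNA3 none was. The median log2FC of the rises was 0.21 against KMT2C siRNA2 and siRNA3 and 0.18 against the KMT2D siRNAs, and the medians of the falls were -0.79 and -0.91.

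The levels in all 6 libraries of a line show the same split. For 80 of the 151 rises (53%) the Control siRNA library was the lowest of the 6 libraries in all 3 lines, as it was for 1.54% of all tested genes. KMT2C siRNA1 was the highest of the 6 in all lines for 13 of the rises (8.61%), as it was for 0.955% of all tested genes. For 52 of the 111 falls (46.8%) the KMT2C siRNA1 library was the lowest of the 6 in all 3 lines, as it was for 1.36% of all tested genes. The Control siRNA library was the highest of the 6 in all lines for 11 of the falls (9.91%), as it was for 0.823% of all tested genes. Since each gene was called on a difference between these same KMT2C siRNA1 and Control siRNA libraries, these places describe the called genes and do not test them.

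**Figure D2:**
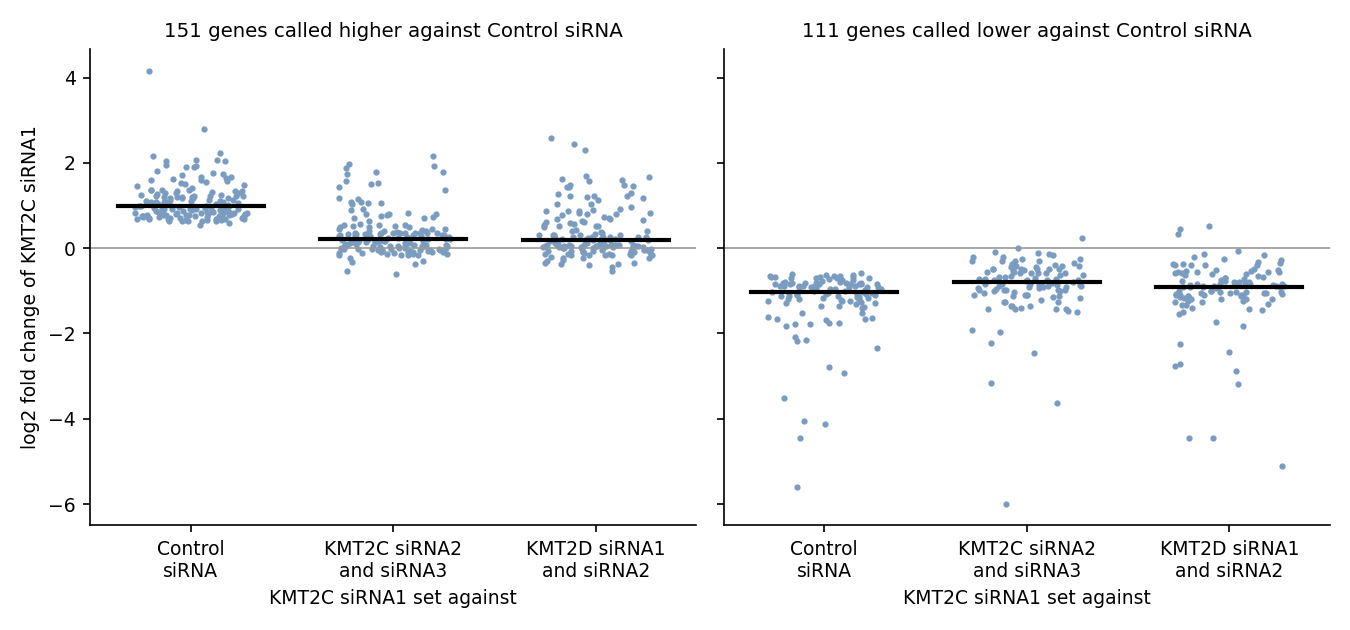
Log2 fold change of KMT2C siRNA1 against each of 3 references for the 151 genes called higher (left) and the 111 called lower (right) than with Control siRNA; each point is a gene and each bar a median. The median of the rises is 0.99 against Control siRNA and 0.21 and 0.18 against the other references, and that of the falls is -1.02, -0.79 and -0.91.

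The 12 largest rises named by the rule included receptors, transporters and signalling regulators. MET, the receptor for hepatocyte growth factor, had 379 CPM in PANC1, 151 CPM in COLO357 and 1450 CPM in SUIT2 with KMT2C siRNA1, against 94.0, 65.1 and 207 CPM with Control siRNA. It was 4.09-fold higher (log2FC 2.03, SE 0.24, edgeR adjusted p = 0.000154), and in each line the control library was the lowest of all 6, and the other siRNAs gave 135.5 CPM or more in every library. Against KMT2C siRNA2 and siRNA3 the log2FC of MET was 0.49 (SE 0.19, edgeR adjusted p = 0.241). MSRB3, a methionine sulfoxide reductase, had 116, 7.85 and 12.6 CPM in PANC1, COLO357 and SUIT2 with KMT2C siRNA1, against 40.7, 3.85 and 1.54 CPM with Control siRNA. Its log2FC was 1.77 against Control siRNA (SE 0.31, edgeR adjusted p = 0.00696) and 0.04 against KMT2C siRNA2 and siRNA3 (SE 0.25). SLC36A1, a proton-coupled amino acid transporter of lysosomes, had 11.5, 22.5 and 14.4 CPM with KMT2C siRNA1, against 2.54, 11.6 and 3.77 CPM with Control siRNA. Its log2FC was 1.67 (SE 0.30, edgeR adjusted p = 0.00682), and KMT2C siRNA2 gave the higher levels of 23.02, 33.2 and 17.9 CPM. PTPMT1, a mitochondrial phosphatase of cardiolipin synthesis, and FGF14 rose by 1.93 and 1.80 on the log2 scale (SE 0.32 and 0.40). Both overlap other annotated genes, so part of their counts is uncertain. Their log2FC against KMT2C siRNA2 and siRNA3 was 0.36 for PTPMT1 and 0.26 for FGF14, neither called.

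Most of the other large rises were also called against both other sets of siRNAs, SYNGR3 being the exception. WWTR1 encodes TAZ, a transcriptional coactivator of the Hippo pathway, and overlaps an antisense gene. It had 543 CPM in PANC1, 83.4 CPM in COLO357 and 283 CPM in SUIT2 with KMT2C siRNA1, against 189.9, 43.6 and 49.6 CPM with Control siRNA (log2FC 1.72, SE 0.29, edgeR adjusted p = 0.00682). It was higher than with KMT2C siRNA2 and siRNA3 by 1.16 (SE 0.24, edgeR adjusted p = 0.0166), although those siRNAs differed, since KMT2C siRNA2 gave 140.1, 34.9 and 51.7 CPM and KMT2C siRNA3 gave 512, 78.5 and 174 CPM. SYT11, a synaptotagmin, had 18.6, 1.83 and 0.517 CPM with KMT2C siRNA1, against 3.96, 0.674 and 0.0909 CPM with Control siRNA. Its log2FC was 2.03 against Control siRNA and 1.92 against KMT2C siRNA2 and siRNA3 (SE 0.37 and 0.29, edgeR adjusted p = 0.0055 and 0.000826). RGS4, which shortens G protein signals, had 0.520, 18.5 and 13.5 CPM with KMT2C siRNA1, against 0.29, 3.902 and 3.41 CPM with Control siRNA (log2FC 1.90, SE 0.34, edgeR adjusted p = 0.0055). KMT2C siRNA1 was the highest of the 6 libraries for RGS4 in each line. IL1RL1, the receptor for interleukin 33, had the largest log2FC of the named rises, 2.78 (SE 0.43, edgeR adjusted p = 0.00139). It lay at 43.2 CPM in COLO357 with KMT2C siRNA1, against 5.39 CPM with Control siRNA, and at 1.64 CPM or less in both other lines. SYNGR3, RAB39B and INSYN2B rose by 2.23, 2.15 and 1.74, with at most 3.80 CPM in any Control siRNA library. SYNGR3 was called higher than with the KMT2D siRNAs but not than with KMT2C siRNA2 and siRNA3 (log2FC 0.90, SE 0.37, edgeR adjusted p = 0.263). SYNGR3 and RAB39B act in vesicle traffic.

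The 12 largest falls held 5 genes that carry AAACGGA in their 3′ UTR, as 3.48% of all genes searched do. AAACGGA was ranked with these same KMT2C siRNA1 libraries, so the count does not test it. RMND5A, a subunit of the CTLH ubiquitin ligase, had 51.8 CPM in PANC1, 65.2 CPM in COLO357 and 74.2 CPM in SUIT2 with KMT2C siRNA1, against 297, 128 and 251 CPM with Control siRNA. The 2 groups did not overlap, and the log2FC was -1.66 (SE 0.25, edgeR adjusted p = 0.00136). CDC123, an assembly factor of the translation initiation factor eIF2, had 17.8, 64.7 and 21.9 CPM with KMT2C siRNA1, against 84.1, 104.0 and 117 CPM with Control siRNA (log2FC -1.66, SE 0.28, edgeR adjusted p = 0.00618). DERL2, of the endoplasmic reticulum degradation pathway, had 15, 19.5 and 15.7 CPM with KMT2C siRNA1, against 52.9, 41.3 and 50.5 CPM with Control siRNA. Its log2FC was -1.52 against Control siRNA, -1.35 against KMT2C siRNA2 and siRNA3 and -1.44 against the KMT2D siRNAs (SE 0.21, 0.19 and 0.19, edgeR adjusted p = 0.000303, 0.000383 and 0.000184). GET1, a receptor for the insertion of tail-anchored proteins, fell by 1.64 (SE 0.24, edgeR adjusted p = 0.000546), with 4.46 to 9.35 CPM with KMT2C siRNA1, against 13.7 to 23.4 CPM with Control siRNA. GET1 overlaps genes on both strands. BRI3BP, which holds 2 copies of AAACGGA and 1 of GACGTA, had 28.5, 189 and 46.9 CPM with KMT2C siRNA1, against 162, 237 and 220.2 CPM with Control siRNA (log2FC -1.52, SE 0.35, edgeR adjusted p = 0.0457). For CDC123 and BRI3BP the COLO357 pair was the closest of the 3.

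The other 7 of the largest falls hold no AAACGGA in the 3′ UTR searched. AKR1B10, an aldo-keto reductase, had 85.4 CPM in COLO357 and 6.85 CPM in SUIT2 with KMT2C siRNA1, against 354 and 35.3 CPM with Control siRNA, and lay at or under 0.193 CPM in PANC1 in both. Its log2FC was -2.17 (SE 0.39, edgeR adjusted p = 0.00916), while against KMT2C siRNA2 and siRNA3 it was -0.17 (SE 0.34, edgeR adjusted p = 0.892). TMPRSS2, a membrane serine protease, rested on PANC1, with 6.48 CPM with KMT2C siRNA1 against 26.02 CPM with Control siRNA and at most 0.318 CPM in both other lines (log2FC -2.08, SE 0.39, edgeR adjusted p = 0.00694). TMPRSS2 was also called lower than with both other pairs of siRNAs. FGFR3, a fibroblast growth factor receptor, had 1.12, 13.1 and 0.388 CPM with KMT2C siRNA1, against 3.61, 24.3 and 5.14 CPM with Control siRNA (log2FC -1.75, SE 0.39, edgeR adjusted p = 0.0280). CYP4F3, MIR1915HG, ACSM3 and ARSL fell by 1.78, 1.75, 1.68 and 1.62 (SE 0.35, 0.34, 0.29 and 0.39). ACSM3 and ARSL rested on SUIT2, at 17.1 against 51.8 CPM and 9.31 against 27.8 CPM, with at most 1.40 CPM in both other lines. ARSL was not called by DESeq2. CYP4F3 lay at or under 0.0322 CPM in PANC1, and its log2FC against KMT2C siRNA2 and siRNA3 was -0.08 (SE 0.32, edgeR adjusted p = 0.948). CYP4F3 hydroxylates leukotriene B4 and ACSM3 is a medium-chain acyl-CoA synthetase.

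**Figure D3:**
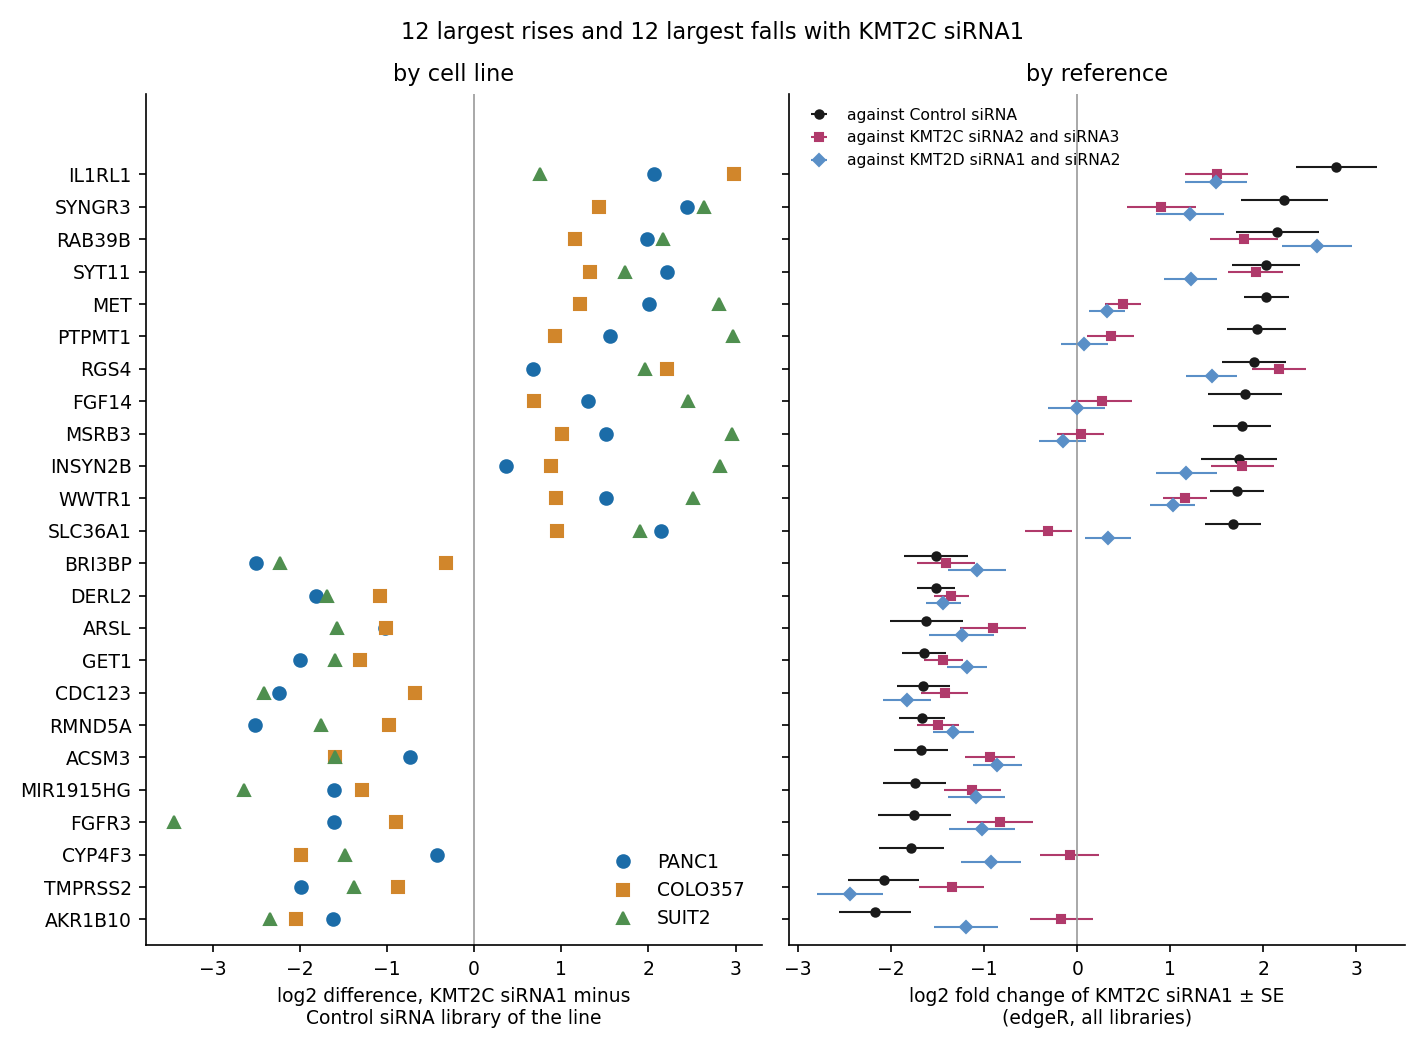
The 12 largest rises and 12 largest falls with KMT2C siRNA1: log2 difference from the Control siRNA library of each line (left, prior count 2) and log2 fold change ± SE against 3 references (right). SLC36A1, MSRB3 and AKR1B10 stand near 0 against KMT2C siRNA2 and siRNA3, at -0.31, 0.04 and -0.17, while DERL2 stands at -1.52, -1.35 and -1.44 against the 3 references.

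Set directly against KMT2C siRNA2 and siRNA3, KMT2C siRNA1 called 402 genes, 2.12% of those tested, of which 231 were higher and 171 lower. These libraries share the targeted mRNA, and the comparison uses no control library. MTPN, which encodes myotrophin, had the largest difference (log2FC 2.23, SE 0.13, edgeR adjusted p = 1.788e-09). It lay at 205, 92.7 and 139.8 CPM in PANC1, COLO357 and SUIT2 with KMT2C siRNA1, against 8.18, 6.59 and 6.90 CPM with KMT2C siRNA2, 200, 80.1 and 109 CPM with KMT2C siRNA3 and 208, 101 and 115 CPM with Control siRNA. KMT2C siRNA2 was thus the library that stood apart for MTPN, and KMT2C siRNA1 differed from Control siRNA by only 0.05 (SE 0.16). RGS4, TMEM158, CEND1, SYT11 and RNF182 were the other named rises, by 1.88 to 2.17. For these genes KMT2C siRNA1 lay above both other KMT2C siRNAs in each line, as the naming rule requires.

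The named falls against KMT2C siRNA2 and siRNA3 were ZBTB18, RMND5A, BMF, STK40, GET1 and CDC123, and 5 of these hold AAACGGA in the 3′ UTR, BMF being the exception. The heptamer was held by 3.48% of all genes searched. It was ranked lowest on this same comparison, so the count describes these genes and does not test it. STK40, a pseudokinase, had 23.4, 9.80 and 18.04 CPM in PANC1, COLO357 and SUIT2 with KMT2C siRNA1, against 98.1, 23.6 and 63.8 CPM with KMT2C siRNA2 and 73.2, 14.2 and 50.2 CPM with KMT2C siRNA3 (log2FC -1.47, SE 0.20, edgeR adjusted p = 0.000383). ZBTB18, a transcriptional repressor, had 3.48, 11.3 and 11.1 CPM with KMT2C siRNA1, against 19.9, 22.2 and 39.3 CPM with KMT2C siRNA2 and 24.2, 14.2 and 36.4 CPM with KMT2C siRNA3 (log2FC -1.62, SE 0.29, edgeR adjusted p = 0.00504). In COLO357 the STK40 and ZBTB18 levels were closer than in either other line. The share of read pairs in no annotated feature was 30.4% in the COLO357 library of KMT2C siRNA3, against 13.6% in the COLO357 library of KMT2C siRNA1, and its part in these results was not tested. Without that KMT2C siRNA3 library 329 genes were called, and without the SUIT2 library of KMT2C siRNA3 208 were.

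Against KMT2D siRNA1 and siRNA2, KMT2C siRNA1 called 1599 genes, 8.44% of those tested, of which 864 were higher and 735 lower. The transfections differ in both targets, whose effects cannot be told apart here. ZNF608 had 26.2, 0.287 and 25.8 CPM in PANC1, COLO357 and SUIT2 with KMT2C siRNA1, against 61.8, 0.744 and 75.5 CPM with KMT2D siRNA1 and 130.2, 1.11 and 151.9 CPM with KMT2D siRNA2 (log2FC -1.90, SE 0.18, edgeR adjusted p = 9.067e-06). PCDH18, a protocadherin, had the largest fall at -3.03 (SE 0.48, edgeR adjusted p = 0.000595), and lay at 1.48 CPM or less in each KMT2C siRNA1 library. TNFRSF11B, TMPRSS2 and ABCA12 were also lower than with the KMT2D siRNAs, with log2FC from -2.48 to -1.89. RAB39B, SPOCD1, CATSPER1, CORO2B, LAT2 and GPR63 were higher than with the KMT2D siRNAs, by 1.85 to 2.58. Of the genes named in this paragraph, only RAB39B and TMPRSS2 were also called against Control siRNA. ABCA12 and SPOCD1 stood at -2.01 and 1.80 against Control siRNA, but GPR63, LAT2 and TNFRSF11B at 0.16, 0.48 and -0.22. With KMT2D siRNA1 and siRNA2, GPR63 stood at -1.56 and -1.805 against Control siRNA, and TNFRSF11B at 2.04 and 2.48. CORO2B, a coronin, lay at 61.2 CPM in SUIT2 with KMT2C siRNA1, against 17.4 CPM with KMT2D siRNA1 and 16.2 CPM with KMT2D siRNA2, and at most 0.459 CPM in both other lines.

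The 3′ UTR sequences were searched in 12272 protein-coding genes with at least 1 CPM on average and a 3′ UTR in the annotation. For each of 15939 heptamers held by 100 or more genes, the mean log2 difference of genes with the heptamer was set against that of genes without it, KMT2C siRNA1 minus the mean of KMT2C siRNA2 and siRNA3 of the same line. Heptamers were ranked in 2 lines and the value was then read in the line left out. AAACGGA, held by 427 genes, ranked lowest in all 3 such rankings. With heptamers held by 50 or more genes it was second to TCGCGGG, held by 77 genes, when SUIT2 was left out (-0.19 against -0.20 in the 2 ranked lines), and lowest in the other rankings. In the line left out its difference was -0.29 in PANC1, -0.10 in COLO357 and -0.28 in SUIT2, at ranks 1, 268 and 1 among the heptamers of that line. AAACGGA was again the lowest heptamer in all 3 rankings against the KMT2D siRNAs and in all 3 against Control siRNA. These rankings share the KMT2C siRNA1 libraries.

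The difference was larger where an A flanked the heptamer or more than 1 copy was present. The median log2 difference from KMT2C siRNA2 and siRNA3 of the 239 genes with an A on at least one side of AAACGGA was -0.27 in PANC1, -0.08 in COLO357 and -0.29 in SUIT2. For the 188 genes with no A beside it the medians were -0.17, -0.03 and -0.11, and for the 11845 genes without the heptamer they were 0, 0.003879 and 0. In the 16 genes with 2 or more copies the medians were -0.36, -0.14 and -0.92. Of the genes with AAACGGA, 72.1% in PANC1, 59.95% in COLO357 and 63.5% in SUIT2 were lower with KMT2C siRNA1, against 49.8%, 49.1% and 49.5% of the genes without it. No test was made of these values, which share their libraries and come from genes that are not independent.

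**Figure D4:**
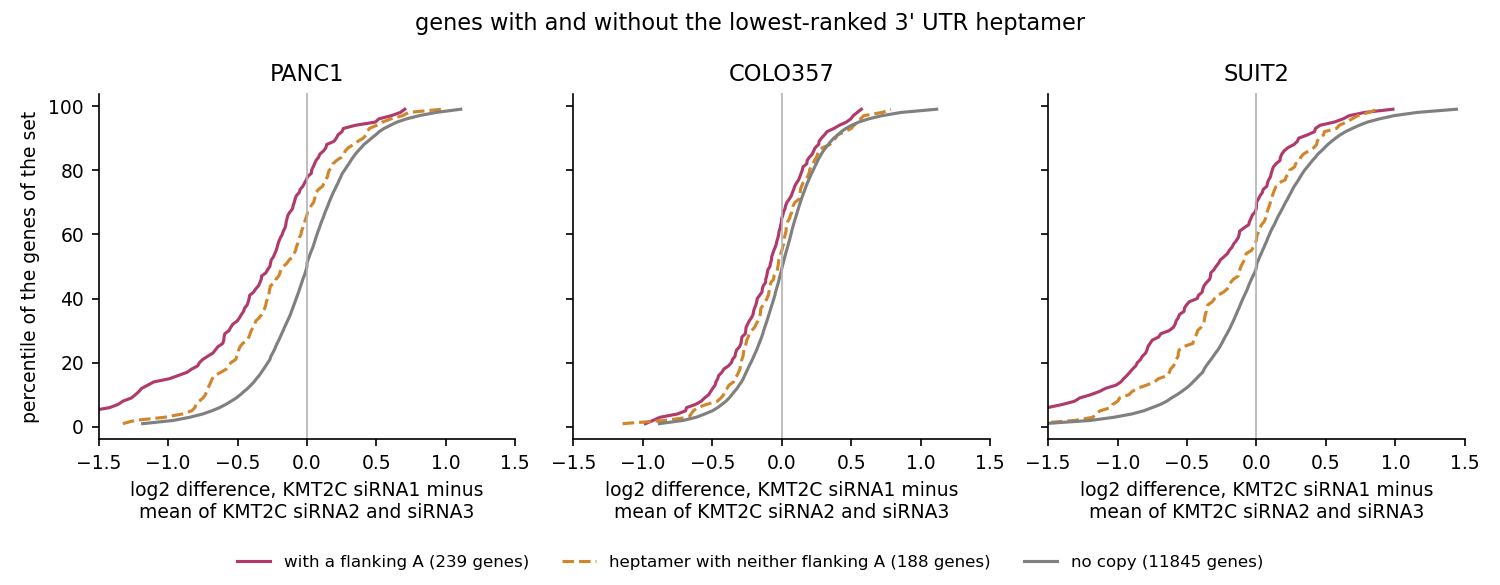
Percentiles of the log2 difference between KMT2C siRNA1 and the mean of KMT2C siRNA2 and siRNA3 in each line, for 239 genes with the heptamer AAACGGA and an A beside it in the 3′ UTR, 188 genes with the heptamer and no A beside it, and 11845 genes without it. At their middles the curves of the genes with a flanking A lie left of the others, with medians of -0.27 in PANC1, -0.08 in COLO357 and -0.29 in SUIT2.

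Among called genes the share with AAACGGA differed by direction. Of the 100 falls against Control siRNA whose 3′ UTR was searched, 30 (30%) held it, as did 5 of 147 rises (3.40%), against 3.48% of all genes searched. Of the 53 searched genes that were lower than with all 3 references, 22 (41.5%) held it. AAACGGA was ranked on these same comparisons, so its shares describe the called genes and do not test the heptamer. The median 3′ UTR length was 1855 bases for the falls and 2089 bases for the rises, against 1413 bases for all genes searched, and the part of length in these shares was not tested. TNRC6B, a scaffold of the silencing complex, also holds AAACGGA, in a 3′ UTR of 12567 bases. It had 61.7, 76.5 and 81.7 CPM in PANC1, COLO357 and SUIT2 with KMT2C siRNA1, against 126, 125 and 104 CPM with Control siRNA (log2FC -0.69, SE 0.16, edgeR adjusted p = 0.0309). The call of TNRC6B was lost in a fit of only the KMT2C siRNA1 and Control siRNA libraries.

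A different word marked the rises. Against Control siRNA the highest heptamers were GACGTAA with PANC1 left out and AGACGTA with COLO357 or SUIT2 left out, and they share the hexamer GACGTA. This hexamer was chosen after the rankings were seen. It was held by 4.82% of the genes searched, by 63 of 147 rises (42.9%) and by 2 of 100 falls (2%). Among the 103 searched rises not called higher against either other set of siRNAs, 53 (51.5%) held it. The 592 genes with GACGTA had median log2 differences from Control siRNA of 0.17 in PANC1, 0.15 in COLO357 and 0.27 in SUIT2, against -0.03, -0.03 and -0.003884 for the genes without it. Against KMT2C siRNA2 and siRNA3 their medians were -0.03, 0.02 and -0.01. MET, PTPMT1, FGF14, MSRB3, WWTR1, RBPJ, NRBF2, RAB7A, PTPN14 and SPRY4 are among the rises that hold it, and MSRB3 holds AAACGGA as well. The highest heptamer against KMT2C siRNA2 and siRNA3 was GCTAGTA, which 5.17% of searched genes and 84 of 208 genes higher in that comparison (40.4%) held, and against the KMT2D siRNAs it was GCATCAT, at 9.86% of searched genes and 189 of 712 higher genes (26.5%). Of the 147 rises against Control siRNA, 9 (6.12%) held GCTAGTA and 16 (10.9%) held GCATCAT.

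Of 15 subunits of the KMT2 complexes tested, 2 fell, KMT2C and RBBP5, and none rose, with a median log2FC of 0.13. KMT2C is the target of the siRNA. Over all genes tested against Control siRNA 0.586% fell and 0.797% rose, with a median of -0.01, which is the background of each list below in that comparison. RBBP5, a shared subunit, had 39.7, 64.5 and 21.7 CPM in PANC1, COLO357 and SUIT2 with KMT2C siRNA1, against 76.25, 73.9 and 43.1 CPM with Control siRNA (log2FC -0.70, SE 0.16, edgeR adjusted p = 0.0280). Of 27 polycomb and enhancer acetyltransferase genes none was called (median 0.06). Of 15 genes of the RNA interference machinery, TNRC6B alone was called, as a fall (median -0.11).

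NRF2 targets and aldo-keto reductases, the antioxidant programme, gave 4 falls and no rise among 26 genes, with 3 of 26 above 0 and a median of -0.35. Of all genes tested 0.586% fell and 48.5% lay above 0. Beside AKR1B10 these were ABCC2, TXNRD1 and TRIM16L. TXNRD1, thioredoxin reductase, had 525, 859.7 and 502 CPM with KMT2C siRNA1, against 1724, 1236 and 989 CPM with Control siRNA (log2FC -0.98, SE 0.22, edgeR adjusted p = 0.0274). ABCC2, an efflux pump for conjugates, had 1.40, 280.4 and 12.5 CPM with KMT2C siRNA1, against 2.51, 500.2 and 35.4 CPM with Control siRNA (log2FC -1.09, SE 0.19, edgeR adjusted p = 0.00426). Against KMT2C siRNA2 and siRNA3 the list had a median of 0.03 and no call. Against the KMT2D siRNAs it had a median of -0.29 and 5 falls, where 3.88% of all tested genes were called lower.

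Lysosome, autophagy and amino acid transport genes gave 4 rises and no fall among 28 (median 0.12), where 0.797% of all genes tested rose. NRBF2, of the autophagy phosphatidylinositol kinase complex, had 46.5, 25.2 and 32.5 CPM with KMT2C siRNA1, against 20.6, 11.5 and 10.4 CPM with Control siRNA (log2FC 1.30, SE 0.16, edgeR adjusted p = 0.000154). RAB7A, the late endosome GTPase, MAP1LC3B, an autophagosome protein, and SLC36A1 were the others, by 0.91, 0.77 and 1.67. None of the list was called against KMT2C siRNA2 and siRNA3, where its median was -0.12. YAP and TGF-beta genes gave 3 rises among 25 (median 0.08), PTPN14, WWTR1 and SMAD3. PTPN14, a phosphatase that restrains YAP, had 568, 185 and 334 CPM with KMT2C siRNA1, against 236, 106 and 84.5 CPM with Control siRNA (log2FC 1.37, SE 0.19, edgeR adjusted p = 0.000306). WWTR1 was the 1 gene of that list called against KMT2C siRNA2 and siRNA3, so PTPN14 and SMAD3 were not called there.

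Single members of several other lists were called. RBPJ, the transcription factor of Notch signalling, rose alone among 27 WNT and Notch genes (log2FC 1.55, SE 0.20, edgeR adjusted p = 0.000266), with 65.2, 48.3 and 131 CPM with KMT2C siRNA1, against 26.02, 23.9 and 23.7 CPM with Control siRNA. Of 23 MAPK feedback and immediate early genes, 21 lay above 0 with a median of 0.49, and SPRY4, an inhibitor of that pathway, was called (log2FC 1.10, SE 0.26, edgeR adjusted p = 0.0352). CDKN1A, which encodes the cell cycle inhibitor p21, was the 1 call among 24 p53 targets and CDK inhibitors. It had 17.3, 94.2 and 36.3 CPM with KMT2C siRNA1, against 9.88, 26.4 and 17.4 CPM with Control siRNA (log2FC 1.21, SE 0.26, edgeR adjusted p = 0.0224), and was lower with Control siRNA in each line. PDIA4, an endoplasmic reticulum chaperone, rose alone among 27 stress genes (log2FC 1.02, SE 0.20, edgeR adjusted p = 0.00916). MET rose and FGFR3 fell among 26 receptor tyrosine kinases and integrins. In the comparison with KMT2C siRNA2 and siRNA3, no WNT and Notch, MAPK or receptor and integrin gene was called. No stress gene was called higher there. CDKN1A had a log2FC of 0.50 in that comparison (SE 0.22, edgeR adjusted p = 0.294), and of 1.13 against the KMT2D siRNAs (SE 0.22, edgeR adjusted p = 0.00333).

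No member was called in the lists of cell cycle, mesenchymal, epithelial, classical or basal-like tumour, glycolysis, lipid synthesis, ribosome biogenesis or housekeeping genes. The medians were -0.11 for 26 G1/S genes, 0.001076 for 25 G2/M genes, 0.17 for 23 mesenchymal genes and -0.23 for 24 epithelial genes. They were -0.15 for 19 classical, -0.17 for 20 basal-like, -0.003815 for 25 glycolysis, -0.15 for 25 lipid, -0.23 for 24 ribosome biogenesis and -0.13 for 15 housekeeping genes. Among markers of other cell types, CDH5, an endothelial cadherin, was called on COLO357 alone, with 28.6 CPM with KMT2C siRNA1 against 5.84 CPM with Control siRNA (CPM without TMM scaling), while PECAM1 and TEK were at 0 in all 6 libraries. Without the COLO357 library of KMT2C siRNA1 its log2FC was -1.58 and not called (edgeR adjusted p = 0.792). No marker of fibroblasts or leukocytes was called. KMT2C, KMT2D, IL1RL1, MSRB3, CDC123, ACSM3, DERL2, BRI3BP, MTPN, BMF, SPOCD1, GPR63, ABCA12, TRIM16L, CDKN1A, CDH1, PTPN14, SMAD3 and MAP1LC3B, like the genes said above to overlap others, share bases with another annotated gene, so part of their counts is uncertain.

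The 3 lines differed in inflammatory and epithelial genes, and with 1 library per line and treatment these differences have no test. Interferon-stimulated genes had a median log2 difference of 1.47 in COLO357, 0.12 in PANC1 and 0.05 in SUIT2. Over the 3 lines, 30 of 31 had a log2FC above 0 with a median of 0.52, and none was called. IFI44L had 39.3 CPM in COLO357 with KMT2C siRNA1, against 4.72 CPM with Control siRNA. It also lay at 38.3 CPM with KMT2C siRNA3 and 47.3 CPM with KMT2D siRNA1 in that line, and at 3.81 CPM with KMT2C siRNA2 and 4.97 CPM with KMT2D siRNA2. NF-kB and cytokine genes had medians of 1.22 in COLO357, 0.24 in PANC1 and -0.44 in SUIT2, with 18 of 22 above 0 and none called. Epithelial genes had medians of -0.53 in SUIT2, -0.20 in PANC1 and 0.08 in COLO357. CDH1, which encodes E-cadherin, had 4.56, 196 and 82.8 CPM in PANC1, COLO357 and SUIT2 with KMT2C siRNA1, against 16.9, 168 and 289 CPM with Control siRNA, and was not called (log2FC -1.01, SE 0.33, edgeR adjusted p = 0.178). The summed level of 8 ductal markers in SUIT2 was 3054 CPM with KMT2C siRNA1, against 7108 CPM with Control siRNA (without TMM scaling). In PANC1 the sums were 1028 and 1124 CPM, and in COLO357 4449 and 5330 CPM. KRT8 was the largest part in SUIT2, at 1269 against 3142 CPM. SOX9 alone of the 8 was higher there, at 78.6 against 50.95 CPM, and it was also higher in both other lines.

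**Figure D5:**
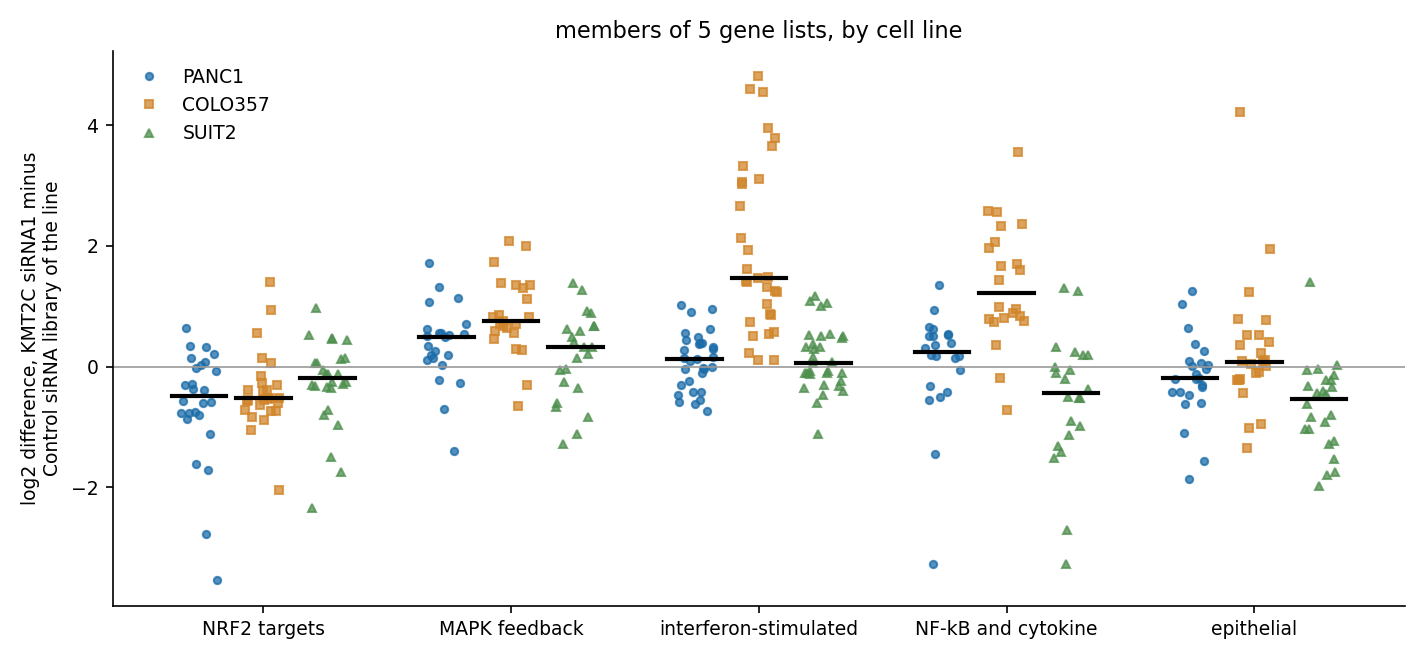
Log2 difference between KMT2C siRNA1 and Control siRNA in each line for the tested members of 5 gene lists; each point is a gene and each bar the median of its line. The median of the interferon-stimulated genes is 1.47 in COLO357, 0.12 in PANC1 and 0.05 in SUIT2, and that of the NRF2 targets is -0.53, -0.48 and -0.195 in those lines.

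The share of read pairs in no annotated feature averaged 13.1% ± 2.57 with KMT2C siRNA1 and 12.8% ± 4.72 with Control siRNA (SD, n = 3 each; exact paired permutation test over lines, two-sided, p = 1, smallest possible p = 0.25). In PANC1 it was 10.3% with KMT2C siRNA1 against 7.49% with Control siRNA, while in COLO357 and SUIT2 the KMT2C siRNA1 library was the lower one. Of 8849 genes with at least 10 CPM in both libraries of 2 or more lines, 59 rose past 0.58 in one line and fell past -0.58 in another, and 3 did so past 1.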

How the data were processed

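Ribosome-depleted total RNA of the 18 libraries was read as stranded pairs of 100 nt in 7 pools, per the labels' protocols. The pool of each library was not used here. The submitters' processing notes name FastQC, TopHat2, HTSeq, edgeR and the hg19 build. The deposited values are raw counts per Ensembl gene, 1 table per library. HTSeq options are not stated in the labels, so overlapping and antisense genes may share reads. The 5 entries that name no gene were left out of sizes and tests (33.0% to 53.4% of read pairs). GENCODE (GRCh38) gave symbols for 52526 of 63677 identifiers.

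Counts were tested with edgeR 4.0.16 in R 4.3.3 by the quasi-likelihood F test (TMM factors 0.942 to 1.06, filterByExpr, robust), with 6 treatments and cell line as terms over all 18 libraries, and Benjamini-Hochberg adjustment. Each line has 1 library per treatment, so cell line, which the labels give, pairs the libraries (the deviations of same-line libraries correlated at 0.943, 0.920 and 0.903). The fit left 10 residual degrees of freedom, with a common biological coefficient of variation of 0.183. SE is the size of log2FC over the square root of F, and line differences use a prior count of 2. Precision is limited by depth only for low genes, and by 3 libraries a group elsewhere.

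Named genes were the 12 largest rises and falls against Control siRNA and 6 each way against the other siRNAs (called, mean of at least 2 CPM, same direction in all lines), and called list members. Some items that these rules name are not reported here. Members, lists and the naming rule were chosen with earlier results of these data known. Alternatives were DESeq2 1.42.0, limma-voom (limma 3.58.1), other scalings, filters and left-out libraries. The scripts were tested on simulated data.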

Additional observations from a re-analysis of the deposited data

Results flagged for a closer look

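Some named genes moved past 0.58 on the log2 scale in opposite directions in 2 lines, KMT2C siRNA1 minus Control siRNA. Each line has 1 library per treatment, so these differences were not tested. MACC1, a regulator of MET transcription, was at 1.29 in COLO357 and -1.25 in PANC1, where it lay at 0 and 0.129 CPM, and at -1.25 in SUIT2, where it had 53.8 CPM with KMT2C siRNA1 and 128 CPM with Control siRNA. VIM, which encodes vimentin, was at 1.97 in SUIT2 (777 against 199 CPM) and -1.24 in COLO357 (50.6 against 119.6 CPM). AHNAK2 was at 1.28 in SUIT2 and -1.01 in COLO357. NFKBIA, the NF-kB inhibitor, was at 0.99 in COLO357 and -1.14 in SUIT2. C1orf116 was at 1.39 in COLO357 and -0.94 in SUIT2. IL1B was at 2.57 in COLO357 and -0.98 in SUIT2, where it lay at 0 CPM with KMT2C siRNA1 and 0.0909 CPM with Control siRNA.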

How the results depend on the processing

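The 262 calls against Control siRNA became 636 with no filter on low counts and 490 with DESeq2 and lay between 189 and 303 under the other scalings, filters and tools tried. The 402 against KMT2C siRNA2 and siRNA3 became 617 in a fit of only those libraries, 802 with no filter and 705 with DESeq2, and the 1599 against the KMT2D siRNAs became 892 in a fit of only those libraries. Leaving out single libraries or lines gave 50 to 361, 46 to 526 and 266 to 1755 calls; the low ends came without PANC1 or SUIT2. Without cell line as the pairing block each comparison called 0 genes by edgeR (209, 303 and 633 at an unadjusted p under 0.05), and KMT2C was at -1.05 (edgeR adjusted p = 1.00). Leave-outs put KMT2C between -1.17 and -0.88 and KMT2D between -0.013 and 0.33. The share of read pairs in no feature differed by -1.03 to 0.92 percentage points. The AAACGGA difference, -0.22 on average over the left-out lines, lay between -0.23 and -0.17 under its 4 alternatives.

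Leave-outs turned the sign of some genes. They ranged from -1.34 to 1.06 for MACC1, -0.44 to 1.13 for VIM, -0.24 to 1.06 for AHNAK2, -0.46 to 0.59 for NFKBIA, -0.91 to 1.28 for C1orf116, -1.58 to 2.19 for CDH5, -1.35 to 2.22 for TFF1, -2.13 to 0.25 for LGALS4, -1.69 to 0.46 for LY6D, -1.28 to 0.011 for MMP2, -0.17 to 1.56 for THY1 and -0.99 to 0.36 for LUM. Of 39 named calls against Control siRNA, DESeq2 lost 2, limma-voom 4, and the fit without the pairing block all 39. A fit of only the 6 libraries lost 7 of 37. Without 1 library of KMT2C siRNA1, 22 were lost (SUIT2), 19 (PANC1) or 4 (COLO357, CDH5 turning sign), and without 1 control library 19 (PANC1), 19 (SUIT2) or 12 (COLO357). Without a whole line 28 (PANC1), 23 (SUIT2) or 8 (COLO357) of 38 were lost. The causes were not tested. With 1 library per line and treatment, depth limits genes near 1 CPM and line differences have no replicate check.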
